A study of Mus musculus with 6 samples.

Results

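Let-7g, let-7i and miR-98 are 3 let-7 guide microRNAs (miRNAs), and let-7g* is the passenger arm cut from the let-7g precursor. These 4 miRNAs, of 567 mouse miRNAs on the array, were taken by name, and their genes lie outside the let-7 clusters of chromosomes 13 and 15. The array lists them as mmu-let-7g, mmu-let-7g*, mmu-let-7i and mmu-miR-98, read by 10 of its 1672 mouse probes. The arrays were Agilent's one-colour design for mouse miRNAs, and the RNA came from Fr. B/C cells, the pro-B stage of B cell development, of BALB/c mice. Adult bone marrow gave 3 sorts, each from 3 female mice pooled, and fetal liver at day 16 of gestation gave 3 sorts, each from the pooled embryos (8 on average) of 1 litter. The labels name no treatment or altered gene in either group. Each sort was read on 1 array from 100 ng of total RNA.

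The let-7 guides share a seed and repress genes of growth and of fetal stages. The RNA-binding protein Lin28b, which the study is about, is known to bind let-7 precursors and to block their cutting into mature miRNA, and it is made in fetal but not in most adult blood progenitors. A GGAG sequence in the precursor, on the passenger side of the loop, is a known contact of Lin28 proteins. The comparison of fetal liver with bone marrow asks how far each mature let-7 miRNA differs between the 2 stages of life.

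The mature sequences are shown because the 3 guides carry the same seed and differ only from base 11 on, where array probes must tell them apart. They are from RefSeq (GRCm38.p6), written 5′ to 3′, with the seed (bases 2 to 8) in capitals.
let-7g: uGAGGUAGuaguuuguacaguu
let-7i: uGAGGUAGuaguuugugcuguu
miR-98: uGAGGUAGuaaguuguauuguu
let-7g*: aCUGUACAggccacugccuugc
With positions counted from 1 at the 5′ end, let-7i differs from let-7g by A17G and A19U, so by 2 of 22 bases. MiR-98 differs from let-7g by G11A, U12G, C18U and A19U. It differs from let-7i at 4 bases too, as G11A, U12G, G17A and C18U read from let-7i to miR-98. All 9 let-7 guides on the array share the seed GAGGUAG. The let-7g* seed, CUGUACA, is another one.

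The array's own probe positions (mm9) place let-7g on chromosome 9 (106081178 to 106081198) and let-7g*, whose 3′ end is 56 bases further on, at 106081240 to 106081254. They place let-7i on chromosome 10 (122422754 to 122422774) and miR-98 on chromosome X (148347772 to 148347793). In the RefSeq gene table the let-7g hairpin lies inside Wdr82, whose protein is part of a histone methyltransferase complex, and the miR-98 hairpin inside Huwe1, which encodes a ubiquitin ligase. No listed gene holds the let-7i hairpin. Whether these positions are exonic or intronic was not analysed here.

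The hairpins are shown because the GGAG sequence sets the members apart. It is in capitals in the RefSeq sequences (GRCm38.p6) below.
let-7g hairpin: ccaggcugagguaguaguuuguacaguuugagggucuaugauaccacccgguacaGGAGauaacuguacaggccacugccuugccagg
let-7i hairpin: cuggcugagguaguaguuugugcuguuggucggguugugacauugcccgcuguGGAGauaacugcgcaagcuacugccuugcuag
miR-98 hairpin: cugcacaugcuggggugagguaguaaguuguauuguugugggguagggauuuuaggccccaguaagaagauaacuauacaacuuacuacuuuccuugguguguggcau
GGAG was searched on the RNA strand only. The let-7g and let-7i hairpins hold it 1 time each, just before AUAAC, and the miR-98 hairpin holds GAAG in that place and has 0 matches. GGAG occurs in 44.5 percent of the 1005 mouse hairpins listed, and of the 399 with 80 to 110 bases 45.6 percent do. A match is a run of letters and not a measured binding site.

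All 6 arrays lay on 1 slide and were scanned in 1 run. The bone marrow arrays lay in row 1 of the slide and the fetal liver arrays in row 2, so slide row and tissue cannot be told apart. Fetal liver replicate 2 stood apart from the other arrays. On it the share of mouse spots well above background was 7.02 percent, against 18.4 to 23.7 percent on the other 5, and the SD of its negative controls was 10.3 against 2.33 to 2.76. After scaling, its lowest probe signal well above background was 106, which is 6.73 on the log2 scale, against 3.02 to 4.32 (log2) on the others. Results are given with and without it. Signals were scaled between arrays and given a common floor of 16.5, which is 4.04 (log2), and all levels below are log2 of the scaled signal unless said otherwise.

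Let-7g was lower in fetal liver and was the one member measured above background on every array. Its level was 8.97, 9.18 and 9.18 in bone marrow replicates 1 to 3, and 7.54, 7.16 and 7.67 in fetal liver replicates 1 to 3. The lowest bone marrow array lay above the highest fetal liver array. The scaled signals were 502 to 582 for bone marrow and 143 to 203 for fetal liver. All 10 spots of the probe were well above background on each array. Means were 9.11 ± 0.12 and 7.45 ± 0.26 (SD, n = 3 each). Let-7g fell by 1.66 ± 0.22 SE (log2), or 3.15-fold with a 95 percent interval of 2.19 to 4.55, in limma over 135 tested miRNAs (Benjamini-Hochberg adjusted p = 0.00260). Without fetal liver replicate 2 it fell by 1.56 ± 0.14 SE (limma, adjusted p = 0.00422). These sorts are bulk RNA, so a lower level per cell and fewer cells that hold the miRNA cannot be told apart.

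Let-7i had the largest difference of the 3 guides. Its level was 8.64, 8.69 and 8.55 in bone marrow, an SD of 0.07, and 5.96, 4.93 and 6.13 in fetal liver. The groups were far apart, and fetal liver replicate 2 was the lowest array. There, 0 of 10 spots were well above background, and the scaled signal of 30.5 lay under the 106 that this array could resolve. Let-7i fell by 2.95 ± 0.34 SE (log2), or 7.73-fold with a 95 percent interval of 4.39 to 13.6 (limma, Benjamini-Hochberg adjusted p = 0.00218). Without fetal liver replicate 2 it fell by 2.63 ± 0.15 SE (limma, adjusted p = 0.00230). With undetected values raised to the lowest detected signal of their array, an alternative chosen after seeing the data, let-7i fell by 2.35 ± 0.29 SE (limma, adjusted p = 0.00879). With normexp background correction, which adds an offset of 50, it fell by 1.66 ± 0.28 SE (limma, adjusted p = 0.00742).

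MiR-98 was dim in bone marrow and near the floor in fetal liver. Its level was 5.58, 5.66 and 5.85 in bone marrow, and 4.32, 4.04 and 4.13 in fetal liver, where replicate 2 was at the floor. Every bone marrow array lay above every fetal liver array. In fetal liver 5, 0 and 9 of its 10 spots were well above background in replicates 1 to 3, so that only replicate 3 passed the mark of more than 50 percent of spots. The signal on fetal liver replicate 2 was below 0 after background subtraction (-20.5, scaled).

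MiR-98 fell by 1.53 ± 0.20 SE (log2), or 2.89-fold with a 95 percent interval of 2.08 to 4.03, in limma with the common floor (Benjamini-Hochberg adjusted p = 0.00253). This fold is not exact, because 2 of 3 fetal liver values were not well above background. The bone marrow levels of miR-98, up to 5.85, were also below the 6.73 that fetal liver replicate 2 could resolve. Without that replicate miR-98 fell by 1.52 ± 0.15 SE (limma, adjusted p = 0.00558). With undetected values raised to the lowest detected signal of their array the difference was -0.63 ± 0.70 SE and was not called (limma, adjusted p = 0.535). With normexp background correction it was -0.30 ± 0.38 SE (limma, adjusted p = 0.997), and with a floor of 1 it was -2.88 ± 1.19 SE (limma, adjusted p = 0.188).

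**Figure D1:**
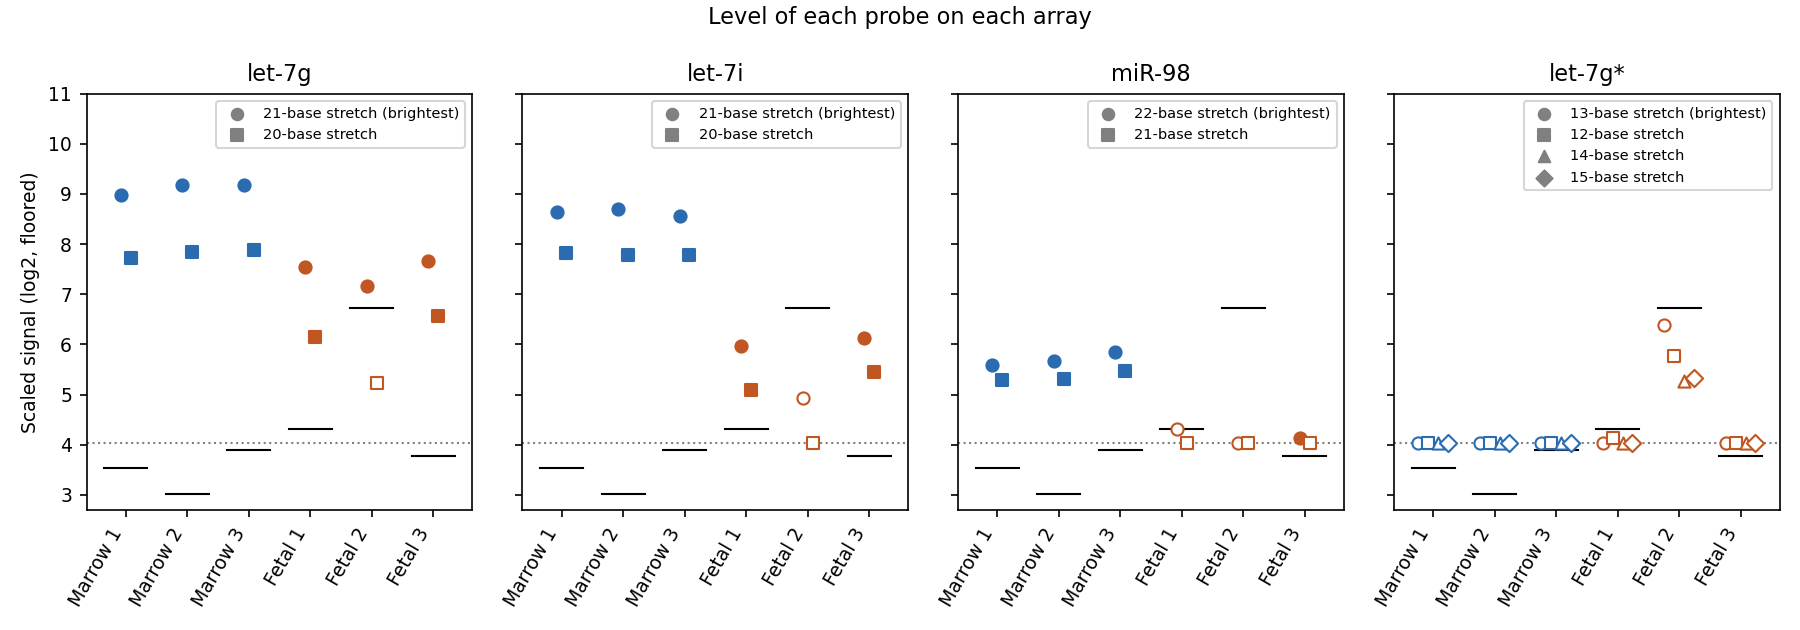
Level of each probe of let-7g, let-7i, miR-98 and let-7g* (log2 scaled signal with the common floor as a dotted line) on 3 bone marrow arrays (blue) and 3 fetal liver arrays (orange). Filled points had more than 50 percent of spots well above background, black bars mark the lowest signal well above background on each array, and marker shapes are probes that read stretches of different length. The bar of fetal liver replicate 2, at 6.73, lies above its let-7i, miR-98 and let-7g* points.

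Let-7g* was well above background on 0 of 6 arrays and was not tested. This arm is normally degraded when the guide is loaded. Its brightest probe was at the floor of 4.04 on all 3 bone marrow arrays and on fetal liver replicates 1 and 3, and read 6.38 on fetal liver replicate 2. The scaled signals were 5.68, 4.96 and 5.63 in bone marrow and 13.9, 83.4 and -1.36 in fetal liver. On fetal liver replicate 2 the 5 spots of this probe scattered with an SD of 41.4 and 1 of them was well above background. The 83.4 is below the lowest signal well above background on that array. All 4 probes of let-7g* were brightest there, from 5.28 to 6.38. The scanner software's own call per miRNA, which uses another rule, marked let-7g* as detected on bone marrow replicate 1 and fetal liver replicates 1 and 2.

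The probes of let-7g* read only 12 to 15 bases of the 22, counted from the 3′ end, whereas those of the guides read 20 to 22. Of 7 let-7 passenger arms on the array 2 passed the filter on detection, which 23.8 percent of all 567 miRNAs passed. In limma 0 of these 2 were called or had an unadjusted p under 0.05, and a count of 2 is too small to set against the share called overall. Let-7i*, from the let-7i precursor, was like let-7g* well above background on 0 arrays, and lay at the floor on 5 of them and at 4.71 on fetal liver replicate 2. A change of the passenger arms of let-7g or let-7i was therefore not detectable with these arrays. Let-7b* differed by 1.09 and let-7d* by 0.03 (log2, limma), both not called. Let-7b* differed by 0.43 without fetal liver replicate 2 (limma, adjusted p = 0.692), and by 1.75 without fetal liver replicate 3, where it was called higher (limma, adjusted p = 0.0317). Let-7d* differed by -0.80 without fetal liver replicate 2.

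Each guide had a second, dimmer probe, and these gave the same direction for all 3. The 20-base probe of let-7g read 7.73, 7.85 and 7.89 in bone marrow and 6.15, 5.23 and 6.57 in fetal liver. All bone marrow arrays lay above all fetal liver arrays, and on fetal liver replicate 2 none of its 10 spots was well above background (0 of 10). It fell by 1.84 ± 0.36 SE (log2) when second probes were fitted in limma (adjusted p = 0.0190). The 20-base probe of let-7i fell by 2.93 ± 0.38 SE (limma, adjusted p = 0.00379), against 2.95 on the 21-base probe. The 21-base probe of miR-98 read 5.35 ± 0.09 (SD, n = 3) in bone marrow and stood at the floor on each fetal liver array, a difference of -1.31 that the floor sets.

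The spread between spots was small where a member was bright. For the main probe of let-7g the spot CV was 4.10 to 5.98 percent on bone marrow arrays and 5.94 to 8.49 percent on fetal liver arrays. For let-7i it was 1.08 to 7.41 percent on bone marrow arrays, against 12.4, 40.5 and 3.26 percent on fetal liver replicates 1 to 3. For miR-98 it was 7.30 to 8.97 percent in bone marrow, and 28.9 and 15.6 percent in fetal liver replicates 1 and 3. Signal from near-identical family members on a probe was not measured separately. Over the stretch it reads, the brightest let-7g probe has 2 mismatches to each of let-7a, let-7f and let-7i. That of let-7i has 2 to let-7g and 3 or more to the others, and that of miR-98 has 2 to let-7a and let-7c.

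Differences between members were taken within each array. With 3 arrays in each group, no change of such a difference between the tissues could reach a p under 0.05 in its test. Within each array, the let-7i level minus the let-7g level was -0.34, -0.49 and -0.63 in bone marrow and -1.58, -2.23 and -1.53 in fetal liver. There was no overlap, and the mean went from -0.49 ± 0.15 to -1.78 ± 0.39 (SD, n = 3 each), a change of -1.29 (log2). The exact permutation p, two-sided, was 0.1 (adjusted over 3 pairs, 0.15), and no smaller one is possible with 3 arrays in each group. Without fetal liver replicate 2 this difference was -1.07. On the second probes it was -1.09. With undetected values at the lowest detected signal of their array it was -0.69 (exact permutation p = 0.3), and with normexp it was -0.44 (exact permutation p = 0.1).

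The let-7i level minus the miR-98 level was 2.93 ± 0.20 for bone marrow and 1.51 ± 0.57 for fetal liver (SD, n = 3 each), a change of -1.42 (exact permutation p = 0.1, adjusted over 3 pairs 0.15). The floor bounds the miR-98 difference, and with a floor of 1 the change was -0.07 (exact permutation p = 1) and with a doubled floor -2.26 (exact permutation p = 0.1). For let-7g minus miR-98 the values overlapped. They ran from 3.33 to 3.52 in bone marrow and from 3.12 to 3.54 in fetal liver, a change of -0.12 (exact permutation p = 0.5, adjusted 0.5). This change turned positive with a halved floor (0.21) and with a floor of 1 (1.22), so that it has no settled direction.

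**Figure D2:**
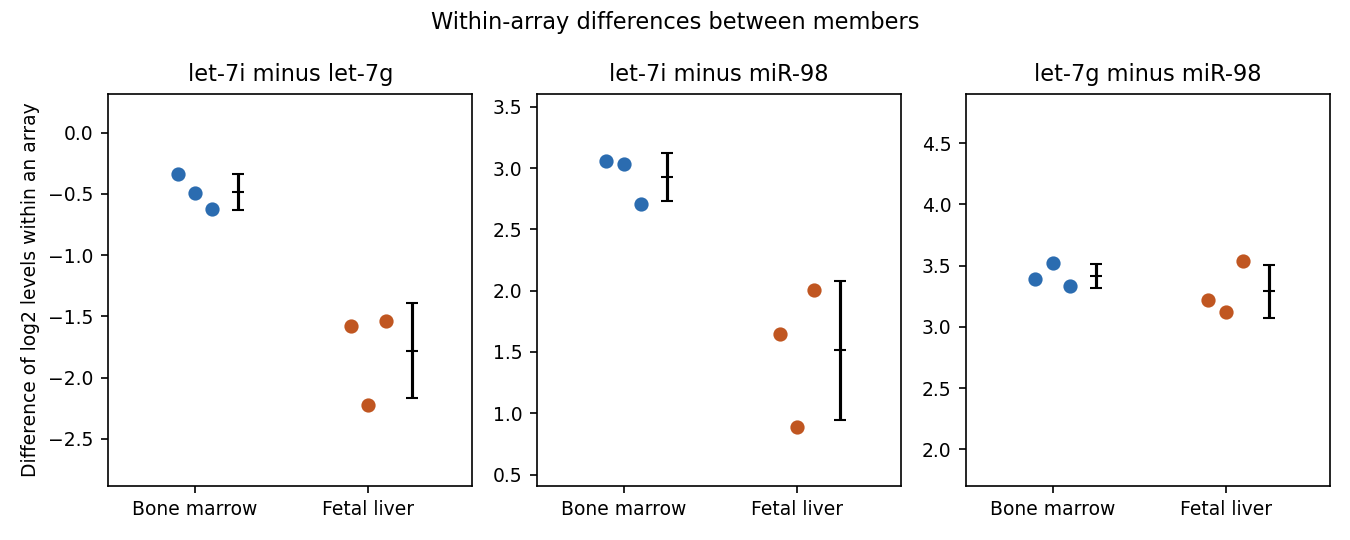
Difference of log2 levels between 2 members within the same array, for bone marrow (blue) and fetal liver (orange). Points are single arrays, bars are mean ± SD (n = 3), and the 3 panels span the same number of log2 units. Let-7i minus let-7g lies between -0.63 and -0.34 in bone marrow and between -2.23 and -1.53 in fetal liver, while let-7g minus miR-98 overlaps between the tissues.

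The 3 tested members were called lower, but they did not enter the test alike. Let-7g was well above background on all 6 arrays, whereas let-7i and miR-98 entered through bone marrow alone, the group where they were high, so the filter itself favoured a lower value in fetal liver. The count of 3 is therefore no support. Over all 135 tested miRNAs, 11.1 percent were called lower and 21.5 percent in either direction, and for 18.5 percent the groups did not overlap with fetal liver lower (40.7 percent with no overlap in either direction). Where all 6 arrays had to be above background, 53 miRNAs were tested and 5 were called lower, and let-7g was the one member tested (limma, adjusted p = 0.00135).

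Of the 6 other let-7 guides, let-7a to let-7f, 4 were called lower and 0 higher, against 11.1 percent called lower of all 135 tested miRNAs. Let-7b, let-7c and let-7e also entered through bone marrow alone, and 2 of the 4 calls are those of let-7b (-4.11) and let-7c (-3.35). Let-7a, let-7d and let-7f were above background on all 6 arrays. With that required of each miRNA, 5 of 53 were called lower, these 3 among them (limma, adjusted p = 0.0228 for let-7a, 8.41e-05 for let-7d and 0.00135 for let-7f). Among all 135, let-7a was not called (-0.79, limma, adjusted p = 0.0515), but it was in 11 of 27 processing alternatives. It was called without fetal liver replicate 1 (limma, adjusted p = 0.0436) or 3 (limma, adjusted p = 0.0357). The call was also made without scaling (limma, adjusted p = 0.00587), with quantile normalisation (limma, adjusted p = 0.0356) and in the deposited table (limma, adjusted p = 0.00636). Let-7e (-0.64) was called in 3 of 25 alternatives. These were without fetal liver replicate 1 (limma, adjusted p = 0.0325), without scaling (limma, adjusted p = 0.0258) and with quantile normalisation (limma, adjusted p = 0.0127). The call of let-7c was lost without bone marrow replicate 3 (limma, adjusted p = 0.0706) and without a filter on detection (limma, adjusted p = 0.184). The let-7e difference was 0 with a doubled floor and 0.26 with undetected values raised to the lowest detected signal of their array. Let-7g (-1.66) lay between let-7d (-2.75) and let-7f (-1.34), and its 95 percent interval (-2.19 to -1.13) overlapped that of let-7f (-1.81 to -0.87). MiR-98 has no settled place in this order, since it was -1.53 with the common floor, -2.88 with a floor of 1 and -0.66 with a doubled floor.

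**Figure D3:**
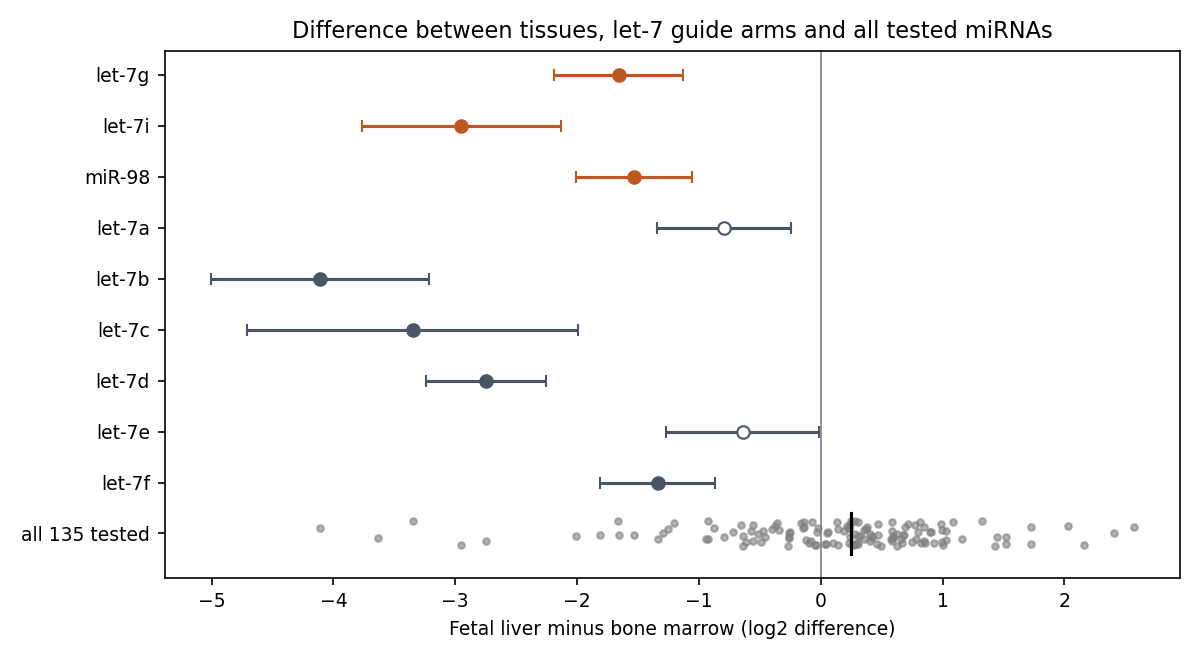
Log2 difference of fetal liver minus bone marrow with its 95 percent interval from limma for the members (orange) and the other let-7 guides (grey), filled where the adjusted p was under 0.05. The bottom row shows the differences of all 135 tested miRNAs with their median of 0.25 as a bar. All 9 guides lie below 0, from -4.11 for let-7b to -0.64 for let-7e, as do 52 of all 135. Let-7i, miR-98, let-7b, let-7c and let-7e entered the test through bone marrow alone, which favoured a lower value.

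MiR-98 shares its locus with a let-7f gene, let-7f-2, the only other miRNA gene on the array within 50 kb of it in the RefSeq table. Let-7f mature miRNA comes from identical sequence on chromosomes 13 and X, which the array cannot tell apart. Let-7f fell by 1.34 ± 0.20 SE (limma, Benjamini-Hochberg adjusted p = 0.00426), against 1.53 ± 0.20 for miR-98. Near let-7g lies a miR-135a gene. MiR-135a was at the floor on all 6 arrays. Its partner arm miR-135a* had 5.29, 4.39 and 5.19 in bone marrow and 5.995, 4.04 and 4.04 in fetal liver (difference -0.26 ± 0.58 SE, limma, adjusted p = 0.742). Its groups overlapped, unlike those of let-7g. No other miRNA on the array came from within 50 kb of let-7i.

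Of the 3 guides, those with GGAG in the hairpin fell by 1.66 (let-7g) and 2.95 (let-7i). For miR-98, without it, the processing sets the size. It was -1.53 as reported, -0.66 with a doubled floor, -1.87 with a halved floor and -2.88 with a floor of 1, so its order against let-7g turns. With normexp miR-98 was -0.30 and let-7g -1.22, and in the deposited table they were -0.95 and -1.44. Among all let-7 hairpins in the table, those of let-7b and let-7c-2 also had 0 matches. Mature let-7c also comes from let-7c-1. Its hairpin holds GGAG 2 times, at position 53 just before UUAAC and again near the 3′ end. Every hairpin of let-7a, let-7d, let-7e and let-7f held GGAG. These 4 guides had differences of -0.79, -2.75, -0.64 and -1.34, so GGAG was also present for the 2 smallest falls, those of let-7e and let-7a. Let-7b, without GGAG, had the largest fall of the 9 guides (-4.11), with 2 of its 3 fetal liver values at the floor. These are values side by side, with no test.

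Likeness of pattern was measured as the root mean square (RMS) difference of levels, each centred on its own mean over the 6 arrays. For let-7g the 3 most alike of 134 tested miRNAs were miR-98 (RMS 0.15), miR-125b-5p (0.19) and miR-29a (0.23), against a median of 1.05 over all 134. For miR-98 they were miR-125b-5p, let-7g and let-7f, each at 0.15. For let-7i they were let-7d (0.40), miR-146a (0.58) and let-7c (0.62), against a median of 1.66. These were picked for a pattern like that of members lower in fetal liver, so their own differences are no further evidence. MiR-125b-5p, a regulator of blood stem cells, was well above background on 0 fetal liver arrays. MiR-146a, which restrains inflammatory signalling, was so on 1. The floor sets much of the likeness to let-7g of miR-98 and miR-125b-5p, whose differences became -2.88 and -2.87 with a floor of 1, while that of let-7g kept its value of -1.66.

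The sign of the members' differences held under 4 other scalings, which moved the median of all tested miRNAs by -0.75 (no scaling) to -0.22 (quantile normalisation). Relative to that median, let-7g had -1.91 as reported and -1.92 to -1.46 under the others, let-7i -3.20 and -3.34 to -2.40, and miR-98 -1.78 and -1.63 to -0.97. The deposited normalised table gave the smallest sizes of these 4 scalings for all 3, with differences of -1.44 for let-7g, -2.39 for let-7i and -0.95 for miR-98. As reported, 14 miRNAs were called higher and 15 lower. The split was 4 and 20 for unscaled signals, 6 and 15 when the percentile covered every mouse probe, 9 and 17 after quantile normalisation, and 11 and 18 in the authors' own table. When the percentile covered every mouse probe, limma gave all named miRNAs the same SE (0.49), so those calls do not reflect the spread of each miRNA.

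**Figure D4:**
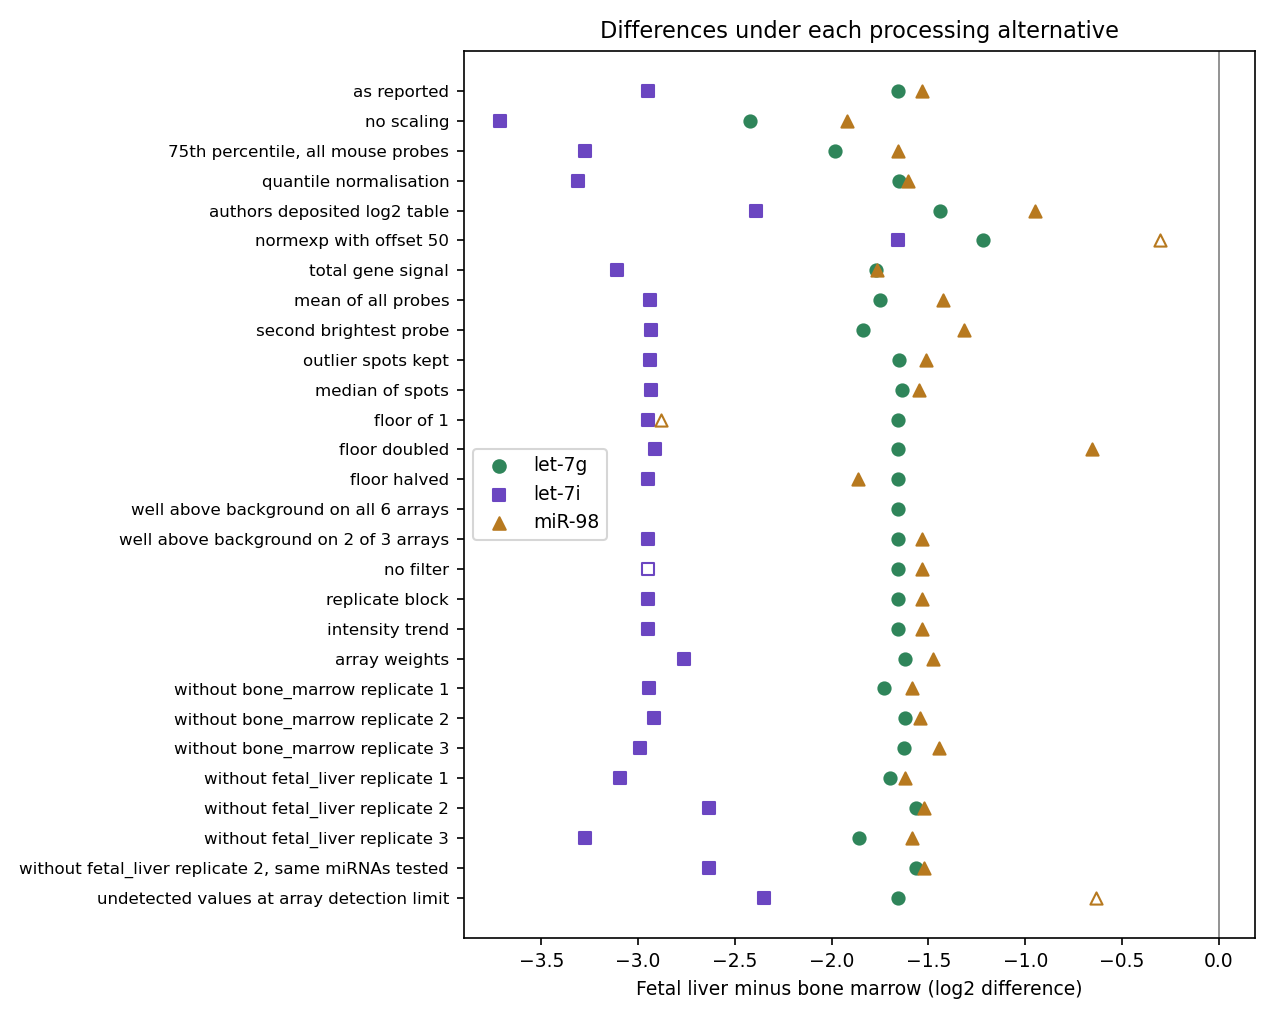
Log2 difference of fetal liver minus bone marrow for let-7g, let-7i and miR-98 under each processing alternative, with the reported setting on top. Filled points had an adjusted p under 0.05 in limma. Let-7g ranges from -2.42 to -1.22 and is filled in every row, let-7i is open without a filter on detection, and miR-98 is open in 3 rows. Let-7i and miR-98 have no point where all 6 arrays had to be above background.

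Some markers of other cells differed between the tissues, while others were at the floor on every array. Surface markers that define Fr. B/C are not on a miRNA array. The haematopoietic miR-142-3p and miR-142-5p were well above background on all bone marrow arrays and on 3 and 2 fetal liver arrays, and 0 of these 2 were called. Of 4 lymphoid miRNAs (miR-150, miR-155, miR-181a, miR-181b) 1 was called lower, miR-181a, and the summed scaled signal ranged from 471 to 625 for bone marrow and from 355 to 544 for fetal liver. Of the 3 erythroid miRNAs, miR-451 was called higher, miR-486 was not tested and miR-144 was at the floor on every array, and their sum ranged from 121 to 184 for bone marrow and from 524 to 779 for fetal liver. Both myeloid miRNAs, miR-223 and miR-146a, were called lower, with sums of 391 to 724 and 74.7 to 132. MiR-181a, miR-223 and miR-146a entered the test through bone marrow alone, where they were high, so the filter favoured a lower value. Of all 135 tested miRNAs, 11.1 percent were called lower and 21.5 percent in either direction. The call of miR-181a was lost when bone marrow replicate 2, bone marrow replicate 3 or fetal liver replicate 2 was left out (limma, adjusted p = 0.103, 0.130 and 0.0674), and that of miR-223 without bone marrow replicate 3 (limma, adjusted p = 0.0518). MiR-150 (-0.92, not called) was called lower without fetal liver replicate 1 (-1.56, limma, adjusted p = 0.0336), without scaling (-1.68, limma, adjusted p = 0.0166) and scaled over every mouse probe (-1.41, limma, adjusted p = 0.0308). In that last fit all named miRNAs had the same SE (0.49), so its p-values do not reflect the spread of each miRNA. Of the hepatocyte miRNAs, miR-192 and miR-194 were at the floor on all 6 arrays, and miR-122 was above it on 1 fetal liver array. The stromal miR-143, miR-145 and miR-214 were at the floor throughout. The part of other cells in the let-7 differences was not tested.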

How the data were processed

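Spot signals came from Agilent's Feature Extraction software (9.5.3.1, per the file headers). The deposited processed signal is an intensity after background subtraction within each array. Flags of 0 or 1, such as well above background, are also the software's. The authors also deposited log2 values per spot, normalised between arrays, with scale and background correction not given in the sources used here. They served as an alternative.

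Spots of a probe (5 to 20) were averaged without outliers. Each array was scaled to a common 75th percentile of the 82 probes that passed the background mark everywhere. For the floor, the 5th percentile of such signals was taken on each array and the median of these 6 values used. Each miRNA took its brightest probe and was tested if any of its probes passed that mark on 3 of 3 arrays of a group (135 of 567). Fetal liver minus bone marrow was fitted in limma 3.58.1 (R 4.3.3, lmFit, eBayes) with Benjamini-Hochberg adjustment, and called at an adjusted p under 0.05. Pairs of members used two-sided exact permutation tests. The fit was also run on simulated data with normal noise of equal spread in both groups. These had no floor and no filter on detection, so they do not cover values near the floor.

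The members, lists, alternatives and the naming rule were chosen with earlier results of these data known. The rule named the members, all let-7 arms, miRNAs within 50 kb, the 3 most alike tested miRNAs of each member, and markers of other cells. Figures were drawn with matplotlib 3.10.9.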

Additional observations from a re-analysis of the deposited data

How the results depend on the processing

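Over 27 alternatives let-7g was called lower in all, from -2.42 to -1.22 (log2, limma, adjusted p up to 0.0327). Let-7i was called in 25 of 26, from -3.71 to -1.66, and missed without a filter on detection (-2.95, adjusted p = 0.0531), where 567 miRNAs entered the adjustment. MiR-98 was called in 23 of 26 and missed with normexp (-0.30), a floor of 1 (-2.88) and undetected values at the lowest detected signal of their array (-0.63). With 1 array left out the ranges were -1.86 to -1.56, -3.27 to -2.63 and -1.62 to -1.45, all called. The changes between pairs kept their sign except let-7g minus miR-98 with a floor of 1 (1.22) and a halved floor (0.21). Other let-7 guides called lower ran from 3 to 6 (4 as reported).

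Calls over all miRNAs (29) were 10 with normexp, 16 on second probes, 18 over miRNAs above background on all 6 arrays, 12 without a filter, 18 with undetected values raised, and 12 to 40 with 1 array left out (19, 15 and 12 without bone marrow replicates 1, 2 and 3). With the replicate block 23 were called, with let-7g at adjusted p = 0.0128, let-7i at 0.00284 and miR-98 at 0.0158, and the block ended no call of a member. Same-numbered samples correlated at 0.17, -0.12 and -0.24 in their deviations, so the numbers were not taken to pair them, and 1 of 3 bone marrow arrays correlated best with its own number.

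Signs of differences that were not called turned as follows, and the cause was not tested. Let-7d* was -0.77 without scaling, -0.46 scaled over all probes, -0.33 with quantile normalisation, -0.051 in the deposited table, -0.25 with a floor of 1 or a halved floor, -0.041 with array weights, -0.80 and -0.21 without fetal liver replicate 2 or bone marrow replicate 2, and -0.80 to 0.70 with any 1 array left out. MiR-135a* was 0.00763 on total gene signal, 0.19 with a doubled floor, 0.42 with array weights, 0.00546 without fetal liver replicate 2 (-0.94 to 0.00546 with any 1 array left out) and 0.63 with undetected values raised, where let-7e was 0.26 and miR-142-5p 0.15. With any 1 array left out miR-142-5p ran from -0.83 to 0.00876 and miR-181b from -0.057 to 0.24, and both turned without fetal liver replicate 2. Without scaling miR-142-3p was -0.34, miR-155 -0.48 and miR-181b -0.62, and scaled over all probes miR-155 was -0.042 and miR-181b -0.18. On second probes miR-150 was 0.29 and miR-155 -0.22. Let-7i and miR-98 were not tested where all 6 arrays had to be above background.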
